A study of Xenopus tropicalis with 11 samples.

Results

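At 4302 places in the Xenopus tropicalis genome, Foxh1 had a peak at stage 9, Foxa had a peak at stage 10.25, and neither Foxh1 at the other stages nor Tle nor Smad2/3 had one. They were chosen by overlap of the 6 deposited peak lists. Peaks sharing at least 1 base were merged into 88697 regions, and a region was kept if it carried both the stage 9 Foxh1 and the Foxa list and none of the other 4. They are called stage 9 Foxh1-Foxa regions here. They made up 14.5% of the 29679 regions with stage 9 Foxh1 and 10.6% of the 40603 regions with Foxa. Because the overlaps themselves chose them, the presence of Foxh1 and Foxa and the absence of the other factors are properties of the selection and not results.

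Foxh1 is a forkhead protein that the egg supplies to the embryo. It binds DNA on its own and recruits Smad2/3, which Nodal signalling sends to the nucleus, to switch on mesoderm and endoderm genes. Foxa proteins are forkhead factors of the endoderm and the organizer and are known as pioneer factors, able to bind DNA in closed chromatin. Foxh1 and Foxa recognise related but distinct DNA motifs. Tle proteins, the vertebrate relatives of Groucho, repress transcription. They do not bind DNA themselves and are brought to it by other proteins, forkhead factors among them.

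The values come from chromatin immunoprecipitation and sequencing (ChIP-seq) of whole, unmanipulated embryos of the Nigerian strain, with no genetic or drug treatment in the labels. Stage 9 Foxh1 was precipitated with a custom antibody to the frog protein, and its list stands for 2 pooled replicates, per the labels. Foxa was precipitated at stage 10.25, the onset of gastrulation, with a commercial antibody and from 1 library. Its label reads Foxa, whereas the peak names inside the list read Foxa2, so which Foxa protein the values stand for is not settled here. The lists that had to be absent were Foxh1 and Tle at stage 8, in the blastula, and Foxh1 and Smad2/3 of the early gastrula, slightly older than the Foxa embryos going by the names of those lists. In whole embryos, binding in few cells and weak binding in many cells cannot be told apart, and Foxh1 and Foxa peaks of a region need not come from the same cells. Each factor was represented by 1 list at a given stage. No error between replicates could therefore be computed, and no test across samples was possible. Shares and medians are given with 95% intervals that cover the counting of regions only, and sequencing depth is unknown.

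Regions with Foxh1 at stage 9 alone and without Tle or Smad2/3 divided into a class with Foxa in the gastrula and a somewhat larger class without it. Of the 10078 regions with stage 9 Foxh1 and none of stage 8 Foxh1, gastrula Foxh1, Tle and Smad2/3, the 4302 with Foxa were 42.7% (Wilson 95% interval 41.7 to 43.7%). Over all regions with stage 9 Foxh1, Foxa was present at 36.6%, and since this overlap chose the regions, nothing is read from the pair. The other 5776 had Foxh1 at stage 9 as their only peak and are called regions without any partner. Nearly all stage 9 Foxh1-Foxa regions were simple, with 1 Foxh1 and 1 Foxa peak. A second Foxh1 peak was present in 12 of them and a second Foxa peak in 42, and none held more. Their median width was 376 bases, with a range of 163 to 1484.

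Being in the stage 9 list alone depends on where each list ends. The weakest stage 8 Foxh1 peak had a deposited −log10 p of 32.0, and the stage 9 list went down to 25.7. The stage 9 peak of 979 of the 4302 regions (22.8%, 21.5 to 24.0%) had a −log10 p under 32.0, so a peak of the same value would not have been listed at stage 8. The share was 36.9% (35.6 to 38.1%) in regions without any partner and 18.3% over all stage 9 Foxh1 regions. Raising the floor of the stage 9 list to that of stage 8, an alternative chosen after the values were seen, left 3323 regions. The lists of stages 8 and 9 come from different libraries, and whether their −log10 p values are comparable was not tested. The gastrula lists were also far shorter, with 1290 Foxh1 and 480 Smad2/3 peaks, against 29935 peaks in the stage 9 Foxh1 list. Most stage 9 regions would thus be missing from them whatever the binding. Absence from a list does not show absence of binding, and no loss of Foxh1 by the gastrula is read from it.

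Foxh1 at these regions was mostly below the middle of its list. The deposited fold enrichment of the stage 9 peak over its local background had a median of 13.9 in the 4302 regions (95% interval 13.7 to 14.0), and the middle 50% of the regions lay between 11.3 and 18.05. Over all peaks of the stage 9 list the median was 15.7, and 37.7% (36.2 to 39.1%) of the regions were above it. The median was 12.7 (12.6 to 12.8) in regions without any partner, and 60.4% (58.9 to 61.9%) of the stage 9 Foxh1-Foxa regions were above it. This difference in medians was 1.22, with outer bounds of 0.866 to 1.45 taken from the limits of both medians. With only the upper 50% of the stage 9 Foxh1 and Foxa lists it was 0.22 (-0.24 to 0.79). Such bounds are wider than a 95% interval, and here they span both signs, so the sign is not settled there. Regions whose Foxa peak fell out of that setting counted there as without any partner. Against the 1409 regions that carried Foxh1 at both stages 8 and 9 with Foxa and no Tle, the order was the other way. There the median stage 9 fold was 21.1 (20.5 to 21.7), and 14.4% (13.4 to 15.5%) of the stage 9 Foxh1-Foxa regions exceeded it. Regions with Foxa that had Foxh1 at stage 9 and again in the gastrula, but not at stage 8, numbered 160 and had a median fold of 22.4 (20.8 to 24.7).

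The strongest Foxh1 peaks of the stage 9 list were elsewhere. When all stage 9 regions were ranked by fold, the first stage 9 Foxh1-Foxa region stood at rank 322. Of the 1000 highest regions 10 belonged to the set, against 14.5% of all stage 9 regions. Foxh1 at stage 8 was present in 969 of the 1000, against 58.9% of all, and Tle in 775, against 42.3% of all. Regions with either were left out of the set. None of the 1000 was a region without any partner, so each of the rest carried an excluded list. The low count among these 1000 is therefore set by the selection and is not a result. Of the 5000 highest regions, 223 were in the set and 79 were regions without any partner.

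Foxa showed the reverse picture. Its score, a value of the authors' peak caller for each Foxa peak, had a median of 20.6 (19.8 to 21.3) in the stage 9 Foxh1-Foxa regions. It was 13.5 (12.7 to 14.2) in the regions with Foxh1 at stages 8 and 9, Foxa and no Tle. In the 28597 regions with Foxa and no other list it was 9.32 (9.20 to 9.45). Of the stage 9 Foxh1-Foxa regions, 79.1% (77.9 to 80.3%) were above that last median and 65.7% (64.3 to 67.1%) above the one before it. In the set the Foxa score went with the width of the Foxa peak (rank correlation 0.77). Its Foxa peaks had a median width of 305.5 bases, against 231 in the whole list, and a wider peak has more room to touch a Foxh1 peak. How far the selection by overlap sets the higher score was not tested. The 160 regions in which Foxh1 was found again in the gastrula had a higher median Foxa score of 36.8 (29.4 to 44.2). In the 904 stage 9-only Foxh1 regions with both Tle and Foxa the median was 19.6 (17.5 to 21.8). A Foxa score of this height was thus not particular to the set.

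**Figure D1:**
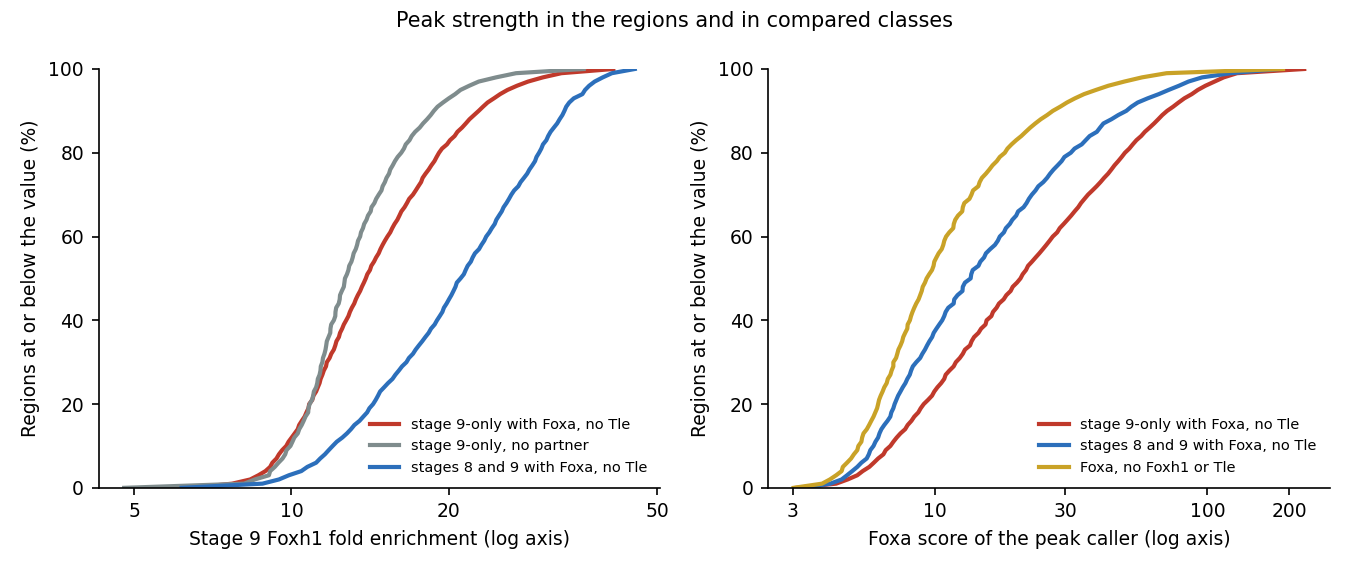
Cumulative share of regions (y, percent) by stage 9 Foxh1 fold enrichment (left) and by Foxa score (right), both on log axes, with 1 line per class of regions. The red line of the 4302 stage 9 Foxh1-Foxa regions crosses 50% at a fold of 13.9, left of the 21.1 of regions with Foxh1 at both blastula stages, and at a Foxa score of 20.6, right of the 13.5 and 9.32 of the other two classes.

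Some of the strongest Foxa regions of the gastrula were in the set, which held 10.6% of all Foxa regions. The region ranked 4 of all 40603 by Foxa score was a stage 9 Foxh1-Foxa region, as were 16 of the highest 100 and 271 of the highest 1000. Of those 1000, 847 carried stage 9 Foxh1 in all and 140 carried Foxa alone. Of the highest 100, 90 carried stage 9 Foxh1, and only 16 of these were in the set. Over all regions with stage 9 Foxh1 and Foxa, 39.6% were in it. Stage 8 Foxh1 was present at 57 of the highest 100 and Tle at 62, and the rule left such regions out. The Foxa regions were divided into 10 classes of equal size by score. The set took 4.01% of the lowest class (scores of 3.03 to 5.43) and 26.5% of the highest (43.1 to 238). Any stage 9 Foxh1 was found at 11.4% of the lowest and 69.5% of the highest class. Among Foxa regions that carried stage 9 Foxh1, the set's share varied less, with 35.3% in the lowest class, 43.2% in class 7 and 38.1% in the highest. The higher share at strong Foxa peaks was thus shared with stage 9 Foxh1 regions in general.

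Looking from the Foxh1 side, the share of regions with Foxa was not a simple function of fold. Among regions with stage 9 Foxh1 and none of the 4 excluded lists, Foxa was present at 44.3% (41.8 to 46.8%) in the lowest of 10 classes of fold and at 32.3% (30.0 to 34.7%) in class 3. It was present at 62.1% in class 8 and at 83.5% (75.6 to 89.2%) in class 10, the highest, where 96 of 115 regions had it. The course was similar, at lower shares, in the stage 9 Foxh1 regions that did carry an excluded list. There Foxa was present at 19.5% in the lowest class, 15.9% in class 2, 39.3% in class 8 and 58.7% in class 10. A dip and a rise with fold were thus not particular to regions of stage 9 alone.

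**Figure D2:**
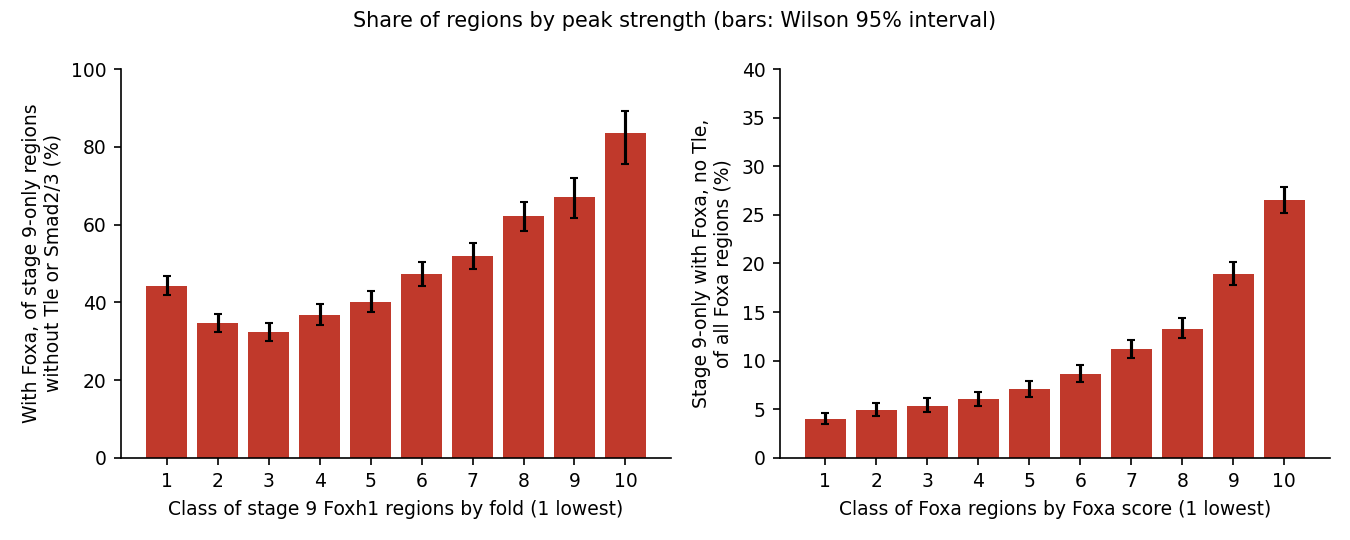
Left, share of stage 9-only Foxh1 regions without Tle or Smad2/3 that carried Foxa (y, percent), by 10 classes of equal size of all stage 9 Foxh1 regions ranked by fold enrichment; right, share of all Foxa regions that are stage 9 Foxh1-Foxa regions, by 10 classes of Foxa score. Error bars are Wilson 95% intervals; the left bars dip to 32.3% in class 3 and reach 83.5% in the highest, and the right bars go from 4.01% to 26.5%.

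Ranked by score, which here is 10 times the −log10 p, the stage 9 Foxh1 regions with none of the 4 excluded lists showed no dip. With the 10078 regions in 4 classes of equal size by stage 9 score, Foxa was present at 31.0, 35.7, 41.7 and 62.3% from the lowest class to the highest. By width of the stage 9 peak the spread was wider, with 13.3% (12.0 to 14.6%) of the narrowest class, of 127 to 205 bases, and 78.3% (76.6 to 79.8%) of the widest, of 326 to 1095 bases. A wider peak has more room to touch a Foxa peak. When the centres of the overlapping peaks had also to lie within 100 bases, 3566 of the 10078 regions (35.4%, 34.5 to 36.3%) had Foxa. By width this share was 11.7, 24.3, 46.7 and 58.8% from the narrowest class to the widest. The order was the same and the spread was smaller. How far peak width sets these shares was not tested.

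Foxh1 fold and Foxa score were nearly unrelated from region to region. No correlation of the Foxh1 score with the Foxa score was computed. Across the 4302 regions the rank correlation of Foxh1 fold and Foxa score was 0.10, a description only, since all regions share the same pair of libraries. It was 0.15 across the 1409 regions with Foxh1 at stages 8 and 9, Foxa and no Tle. A Foxh1 fold at or below the median of its list together with a Foxa score above the median of its list was the most frequent combination, with 1925 regions (44.7%). Both were above their medians in 1263 regions (29.4%) and neither was in 756 (17.6%). A fold above with a Foxa score at or below the median was the rarest, with 358 regions (8.32%).

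**Figure D3:**
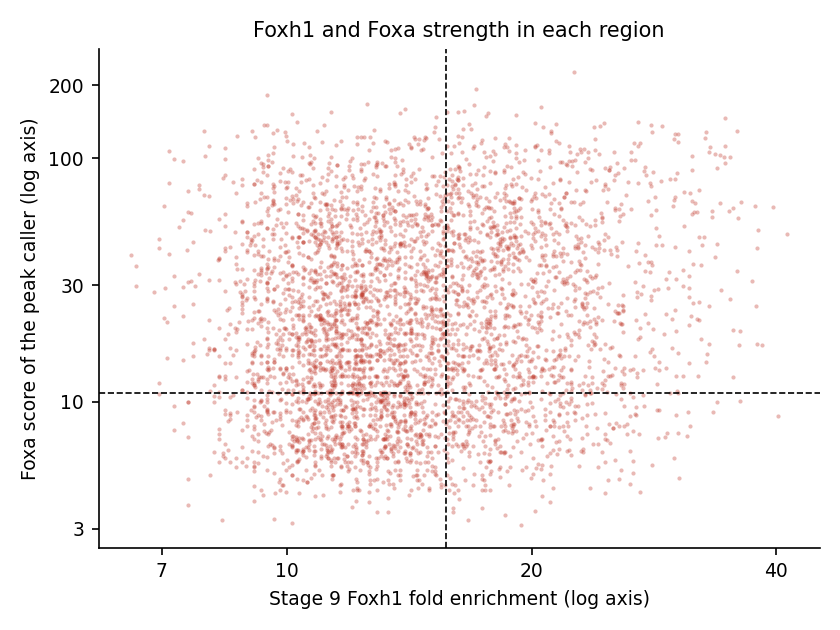
Each point is 1 of the 4302 stage 9 Foxh1-Foxa regions, by stage 9 Foxh1 fold enrichment (x, log axis) and Foxa score (y, log axis); dashed lines are the medians of the 2 whole lists, 15.7 and 10.8. The cloud has little slope (rank correlation 0.10), and its fullest part is at the upper left, with 1925 regions.

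Foxh1 and Foxa were centred on nearly the same place. The distance from the Foxh1 summit to the middle of the Foxa peak had a median of 41 bases (95% interval 40 to 43), and it was within 50 bases in 58.2%, within 100 in 82.9% and within 200 in 96.7% of the regions. The Foxh1 summit was inside the Foxa peak in 94.1% and the middle of the Foxa peak inside the Foxh1 peak in 96.5%. Regions with Foxh1 at stages 8 and 9, Foxa and no Tle had the same median of 41 bases (38 to 44, over the 1403 whose 2 peaks overlapped directly). Since overlap was required, short distances are partly set by the selection, and the Foxa middle is not a summit.

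**Figure D4:**
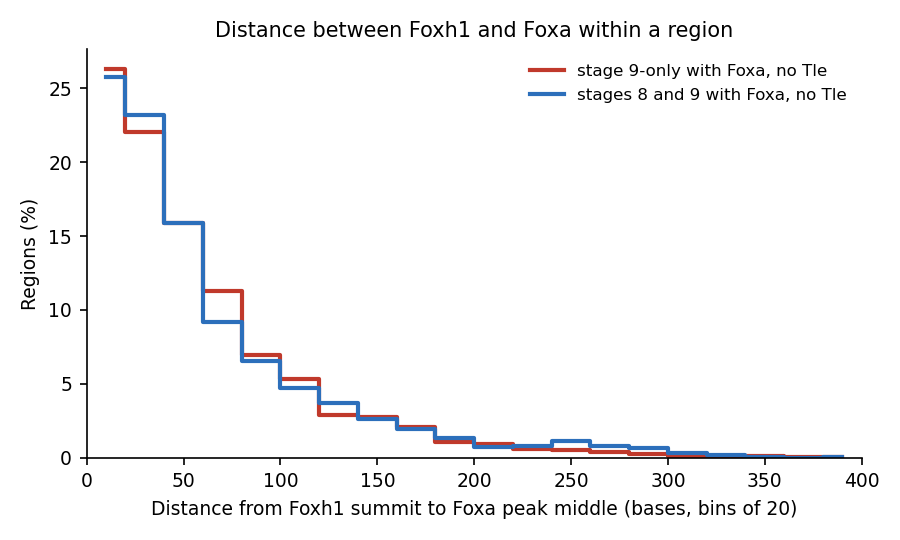
Distance from the stage 9 Foxh1 summit to the middle of the Foxa peak (x, bases, in bins of 20) and share of regions (y, percent), for the 4302 stage 9 Foxh1-Foxa regions and for the 1403 regions with Foxh1 at stages 8 and 9. Both lines are highest in the first bin and have a median of 41 bases.

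The peaks themselves were of like size. The Foxh1 peak had a median width of 314 bases and the Foxa peak 305.5 bases, with 253 bases shared. Foxh1 peaks of the whole stage 9 list had a median of 292 bases and Foxa peaks of the whole list 231. In 25.2% of the regions the Foxh1 peak was wholly inside the Foxa peak, and in 29.8% the Foxa peak was wholly inside the Foxh1 peak. At the edge of the selection, 6 regions had an overlap of 10 bases or less, the smallest being 1 base. Just outside it, 4 of the regions without any partner had a Foxa peak within 10 bases, the closest at 3 bases, and 56 (0.970%) had one within 100.

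The set was divided into 4 classes by Foxa score to see what varied with it. The 1076 regions of highest Foxa score (43.2 to 226.5) had a median Foxh1 fold of 14.9, and the 1075 of lowest score (3.10 to 10.51) one of 13.4. Their Foxh1 peaks had median widths of 390 and 272 bases in the same order. The distance between the centres was similar, at 46 and 40 bases. A further Foxa peak outside the region but within 10 kb was present at 91.8% of the highest class and 65.2% of the lowest. For a gastrula Foxh1 peak within 10 kb the shares were 16.8 and 7.53%, and for Smad2/3 6.13 and 2.79%. Splitting the same regions by Foxh1 fold gave no such order, with Foxa neighbours at 78.4% of the highest class and 79.5% of the lowest.

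The regions lay among other peaks of the same factors. Another Foxa peak was found within 10 kb of 77.5% (76.3 to 78.8%) of the stage 9 Foxh1-Foxa regions, against 51.8% (50.5 to 53.1%) of the regions without any partner. The share was 70.2% (67.8 to 72.5%) for Foxa regions with Foxh1 at stages 8 and 9 and no Tle, and 65.7% (65.1 to 66.2%) for Foxa regions with no other list. The median gap to the nearest Foxa peak outside the region was 2237 bases for the set and 9080.5 for the regions without any partner. Another stage 9 Foxh1 peak within 10 kb was present at 65.0% (63.5 to 66.4%) of the set, against 48.8% (47.5 to 50.1%) without any partner.

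Peaks of the excluded lists were also nearby, though not in the regions. A stage 8 Foxh1 peak lay within 10 kb of 47.6% (46.1 to 49.1%) of the set, against 39.9% (38.7 to 41.2%) of regions without any partner. For Tle the shares were 50.3% (48.8 to 51.7%) and 43.7% (42.4 to 45.0%). Gastrula Foxh1 was within 10 kb of 11.3% (10.4 to 12.3%) of the set and 4.73% (4.21 to 5.30%) of the others. For Smad2/3, the mark of Nodal signalling, the shares were 4.49% (3.91 to 5.15%) and 1.45% (1.18 to 1.80%). Foxa regions with Foxh1 at stages 8 and 9 and no Tle had stage 8 Foxh1 near 51.45% and Tle near 51.2%. They had gastrula Foxh1 near 8.4% (7.0 to 9.9%) and Smad2/3 near 3.3% (2.5 to 4.3%). Foxa regions with no other list had gastrula Foxh1 near 6.3% (6.1 to 6.6%) and Smad2/3 near 2.8% (2.6 to 3.0%). The gastrula Foxh1 and Smad2/3 lists were short, with 1290 and 480 peaks, which limits these shares in every class. Neighbouring regions share their surroundings, so these intervals are too narrow.

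**Figure D5:**
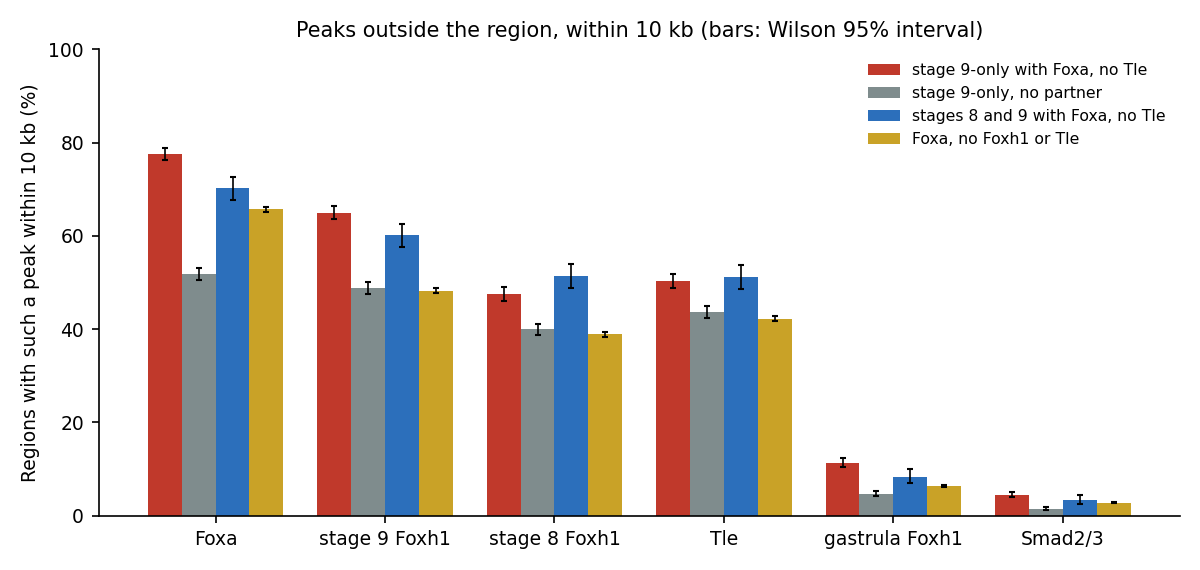
Share of regions (y, percent) with a peak of each list (x) outside the region and within 10 kb, for the stage 9 Foxh1-Foxa regions (red) and 3 other classes; error bars are Wilson 95% intervals. The red bar is the highest for Foxa (77.5%), stage 9 Foxh1 (65.0%), gastrula Foxh1 (11.3%) and Smad2/3 (4.49%), and the blue bar of regions with Foxh1 at stages 8 and 9 is the highest for stage 8 Foxh1 and Tle. The red and blue intervals overlap for stage 8 Foxh1, Tle and Smad2/3.

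The strength of the Foxh1 peak moved with the class, and the shares were also taken within 4 classes of score. Scores inside a class were not matched. The highest class ran from 528 to 1601 and held 1571 regions with Foxa and 949 without any partner. In the 4 score classes of the 10078 regions, from lowest to highest, another Foxa peak within 10 kb was present at 75.9, 73.6, 77.0 and 81.0% of the regions with Foxa. It was present at 49.5, 52.5, 51.2 and 55.6% of those without any partner. Smad2/3 within 10 kb was found at 4.74, 4.12, 4.57 and 4.52% of the regions with Foxa, and at 1.09, 1.54, 1.29 and 2.21% of those without. For all 6 lists the share was higher in the regions with Foxa in each of the 4 score classes, and likewise in 4 classes of fold. These comparisons reuse the same regions and are not independent, so their count is a description only. The presence of Foxa itself divides the sides compared, and Foxa regions with no other list also had another Foxa peak within 10 kb at 65.7%. How far the selection or the Foxh1 strength sets the differences was not tested. In 4 classes of peak width the share was higher in the regions with Foxa in 22 of 24 comparisons. The exceptions were both in the second class, of 205 to 248 bases, where a stage 8 Foxh1 peak lay near 39.4% of the regions with Foxa and 42.6% of those without any partner, and another stage 9 Foxh1 peak near 51.7 and 52.5% in the same order.

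Some regions were close to an excluded peak and some were far from all of them. A stage 8 Foxh1 peak was within 100 bases of 13 regions, a Tle peak of 19 and a Smad2/3 peak of 1. None had a gastrula Foxh1 peak that close, 0 of 4302, which allows a share of up to 0.0697% by a floor of 3 counts, used for a count of 0 in place of the Wilson interval. None of the 4 excluded lists had a peak within 1 kb of 3660 regions (85.1%), and none within 10 kb of 1631 (37.9%).

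The highest Foxh1 folds of the set came with widely different Foxa scores. The highest, 41.3, was at scaffold 7 from 105927942 to 105928380, with a Foxa score of 48.7, and the nearest other stage 9 Foxh1 peak was 29104 bases away. The next, at scaffold 4 from 9327604 to 9327994, had a fold of 40.2 and a Foxa score of 8.69, below the median of the Foxa list. It stood apart from other Foxh1 peaks, the nearest of stage 9 being 105640 bases away. At scaffold 1 from 9260681 to 9261120 the fold was 39.6 and the Foxa score 63.1.

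The region ranked 4, at scaffold 7 from 102919239 to 102919796, had a fold of 38.5 and a Foxa score of 17.1. Peaks of stage 8 Foxh1, Tle, gastrula Foxh1 and Smad2/3 all lay within 292 to 460 bases of it. That ranked 5, at scaffold 8 from 1795826 to 1796729, had a fold of 38.0 and a Foxa score of 50.8.

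The highest Foxa scores came with Foxh1 peaks of widely different strength. The score of 226.5 at scaffold 6 from 29244521 to 29245015 went with a Foxh1 fold of 22.6, and the centres were 41 bases apart. At scaffold 6 from 76584938 to 76585906 the Foxa score was 193.3 and the fold 17.1. At scaffold 8 from 84449843 to 84450187 a Foxa score of 182.6 went with a fold of 9.45 and a Foxh1 score of 267, near the floor of 256 of the stage 9 list. The next were at scaffold 9 (46291956 to 46292494), with a Foxa score of 166.9 and a fold of 12.5, and at scaffold 7 (21502565 to 21503278), with 166.2 and 16.97. By Foxh1 fold these 5 ranked between 453 and 3961 of the 4302.

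Few regions were near the top for both factors. The best by the sum of both ranks lay at scaffold 5 from 73398400 to 73399170, with a fold of 34.6 and a Foxa score of 146.7, and its centres were 255 bases apart. The second, at scaffold 7 from 60661316 to 60661812, had a fold of 35.8 and a Foxa score of 130.0 with centres 35 bases apart. The third, at scaffold 4 from 9116332 to 9117178, had 32.8 and 128.4, and the centres were 4 bases apart. The last of the 5 were at scaffold 2 from 129048626 to 129049186 (32.7 and 121.2) and at scaffold 7 from 21506229 to 21507213 (34.6 and 112.0).

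At the other end were the weakest regions of the set. The lowest fold, 6.43, was at scaffold 6 from 58565813 to 58566381, where the Foxa score was 40.1. The Foxh1 score there was 260, near the floor of 256 of the stage 9 list. The lowest Foxa score, 3.10, was at scaffold 9 from 54629597 to 54630014, where the Foxh1 fold was 19.4. The floor of the whole lists was a fold of 4.79 and a Foxa score of 3.03. In the region of the next lowest Foxa score, 3.17, at scaffold 2 from 93979490 to 93979694, the Foxh1 peak was weak too, with a fold of 10.1 and rank 3748 of the 4302.

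Some stage 9 Foxh1-Foxa regions lay in groups, though most stood alone. The median gap from a region to the nearest other of the set was 38.7 kb, with the 87 alone on their scaffold counted as farthest. Another within 10 kb was present for 1332 of them (31.0%, 29.6 to 32.4%). Chained at up to 10 kb, 2970 stood alone, 408 chains held 2 regions and 151 chains held 3 or more. The largest chain had 12 regions. No like count for another class is given here, so grouping is not shown to be particular to the set. Peaks lay near each other in other classes too. Another stage 9 Foxh1 peak was within 10 kb of 48.8% of regions without any partner, and another Foxa peak within 10 kb of 65.7% of Foxa regions with no other list. With respect to the other lists these groups were mixed, as the windows of 50 kb with the most regions show.

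The fullest window lay on scaffold 1 from 38117014 to 38167013 and held 13 stage 9 Foxh1-Foxa regions, 11 of them in the chain of 12. Their Foxh1 folds ran between 9.35 and 20.2, and their Foxa scores between 6.05 and 153.9. The highest Foxa scores there were 153.9 (scaffold 1 from 38131578 to 38132363), 111.6 (38142148 to 38143631) and 88.65 (38125398 to 38125958). The window also held 25 stage 9 and 9 stage 8 Foxh1 peaks, 9 Tle peaks, 36 Foxa peaks, 2 gastrula Foxh1 peaks and 1 Smad2/3 peak. No other region with stage 9 Foxh1 outside the 4 excluded lists was present there, so all 13 such regions had Foxa. The windows were picked for holding the most regions with Foxa, which favours a high share there.

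The second window, on scaffold 7 from 21457936 to 21507935, held 9 of the regions, among them 1 of the 5 highest Foxa scores and 1 of the 5 best by both ranks. Their folds ran between 10.4 and 34.6 and their Foxa scores between 9.60 and 166.2. There too each region of stage 9 alone without Tle or Smad2/3 had Foxa, and 30 Foxa peaks stood beside 20 stage 9 Foxh1 peaks.

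A window on scaffold 1 (159274070 to 159324069), one on scaffold 10 (6086974 to 6136973) and one on scaffold 3 (10874642 to 10924641) held 7 regions each. They were 7 of 7, 7 of 10 and 7 of 9 regions of stage 9 alone without Tle or Smad2/3 in those windows. That of scaffold 10 held 2 Smad2/3 and 2 gastrula Foxh1 peaks and included the region closest of all to a Smad2/3 peak, at 78 bases (6128939 to 6129447, fold 14.5, Foxa score 90.1). The window on scaffold 3 held no Smad2/3 and no gastrula Foxh1 peak, and its 7 regions had Foxa scores between 7.76 and 75.2.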

How the data were processed

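The 6 deposited peak lists are the only data used. The submitters' processing notes name MACS2 2.0.10, HOMER 4.7, Bowtie 1.0.0 and SAMtools without their roles. The sources used here give neither the genome build nor the inputs and thresholds of peak calling, so genes and sequences at the regions were not analysed here. The deposited Foxh1 and Smad2/3 lists give for each peak a fold enrichment (a ratio to the local background), a −log10 p, a summit, and a score that equals 10 times the −log10 p rounded down. The Foxa and Tle lists as deposited by the authors carry a score of unnamed type, and the middle of the peak served as centre. Scores and folds were compared within 1 list only.

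Peaks of all lists were merged at an overlap of 1 base, which was checked on planted lists. Where a region held several peaks of a list the highest value was used. Coordinates count from 1. Shares have Wilson intervals and medians have binomial order-statistic intervals at 95%. The outer bounds of a difference set the limits of its values against each other, lower minus upper and upper minus lower. They are wider than a 95% interval. No test was run: each factor and stage has 1 list, and regions are not replicates. The gastrula Foxh1 and Smad2/3 lists are tied to none of the samples described in the labels, so what is said of embryos and antibodies holds for the other 4 lists. The other 7 of 11 samples (RNA polymerase II and input DNA) were not analysed here. Named regions are the 5 highest by fold, by Foxa score and by both ranks, the 5 fullest 50 kb windows, and the extremes of width, of both values and of nearness to Smad2/3, of which the text gives those that add to the account. The smallest overlaps, the splits by score, fold and peak width and the stage 8 floor were added after the values were seen. The regions, lists and rules were chosen with earlier results of these data known. Python 3.11.15 was used (pandas 2.3.3, numpy 2.4.6, statsmodels 0.14.6, scipy 1.17.1, matplotlib 3.10.9).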

Additional observations from a re-analysis of the deposited data

How the results depend on the processing

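With 7 alternatives, 6 of them planned, the count of 4302 regions was between 3323 and 4264 in all but 1: with the upper 50% of the stage 9 Foxh1 and Foxa lists it was 1330. In that setting the Foxa share of stage 9-only regions was 49.8%, the median Foxh1 fold 19.4, the median Foxa score 35.3 and the share with another Foxa peak within 10 kb 71.8%. The alternatives by centre distance and by 50% overlap counted single stage 9 Foxh1 peaks and not merged regions. They also applied their own rule of sharing to the excluded lists. With centres within 100 bases the Foxa share was 35.1% and the median centre distance 33 bases. This share is thus not that of the merged regions with centres within 100 bases, 35.4%. When peaks had to share 50% of each other's length, the share was 36.9%, the fold 14.2, the Foxa score 24.4 and the neighbour share 78.8%. With no excluded peak within 1 kb the share was 41.6% and the neighbour share 75.5%. With the stage 9 floor raised to that of stage 8, the share was 47.7%, the fold 15.6 and the Foxa score 21.9. Selecting stronger peaks raises medians by construction. With the upper 50% of both lists, Foxa neighbours were counted only among the Foxa peaks kept. Regions whose Foxa peak was dropped counted there as without any partner. The cause of the other shifts was not tested. Of 63 values compared, 22 moved outside the interval first reported or, for the count of regions, beyond a set margin. The differences in fold, Foxa score and Foxa neighbours from the compared regions kept their sign in 21 of 21 cases. These cases reuse the same peaks and are not independent, so their count is a description only. With the upper 50% of both lists, however, the fold difference was 0.22 with outer bounds of -0.24 to 0.79. No paired analysis was possible because each factor and stage has a single list with no replicate columns, and for the same reason no replicate could be left out.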

Other observations

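The regions were spread over 141 scaffolds, with 4054 of the 4302 (94.2%) on the 10 that reach furthest. On those 10, Foxa was present at between 40.1% (scaffold 8, 36.8 to 43.4%) and 49.0% (scaffold 10, 43.5 to 54.6%) of the regions with stage 9 Foxh1 and none of the 4 excluded lists. Scaffold 10 also had the highest share of its stage 9 Foxh1 regions in the set, 20.1% (17.4 to 23.1%) against 13.3 to 16.2% on the other 9. With 153 regions over the 37.8 Mb between its start and its last peak, it held 4.05 per Mb, against 2.95 to 3.59 per Mb on the others. On the remaining scaffolds together the Foxa share was 37.5% (33.9 to 41.3%). Base composition, gene density and mappability of these scaffolds were not analysed here.

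The stage 9-only Foxh1 regions with Tle, with or without Foxa, numbered 1780 and had a median Foxh1 fold of 13.96 (13.7 to 14.3), against 13.9 (13.7 to 14.0) in the stage 9 Foxh1-Foxa regions. Of them, 904 carried Foxa, with a median Foxa score of 19.6 (17.5 to 21.8), an interval that overlaps that of the set (19.8 to 21.3). Regions that had Foxh1 at stage 8 alone and later Foxa, with no Tle, numbered 110 and had a median Foxa score of 9.27 (7.94 to 9.94). The number of all regions with Foxh1 at stage 8 alone is not given here, so no share is read from that count.

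The widest regions of the set were at scaffold 1 from 38142148 to 38143631, inside the fullest window, at scaffold 3 from 6821901 to 6823383 and at scaffold 1 from 173412396 to 173413769. They measured 1484, 1483 and 1374 bases, and their Foxa scores were 111.6, 79.3 and 122.1.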
